A study of Homo sapiens with 5 samples.

Results

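CUT&Tag peak lists of a pair of marks on lysine 9 of histone H3 in HepG2, a line from a human liver cancer, were set against each other: β-hydroxybutyrylation (H3K9bhb) and acetylation (H3K9ac). Both lists were limited to chromosomes 1 to 22, X and Y and to peaks with a deposited −log10 q of 2 or more, and a peak counted as shared when at least 1 bp of it lay under a peak of the other list. This gave 9176 H3K9bhb peaks and 31128 H3K9ac peaks, 40304 of the 64851 peaks that met the same limits in the 5 libraries of the study. The remaining 3 profiled Flag-tagged wild type ENL, its Y78A mutant and crotonylation of the same lysine (H3K9cr). The design text names cells that stably express Flag-tagged ENL for the Flag and H3K9bhb profiles. It does not say whether the H3K9ac library came from those cells, and no treatment is labelled for any library. There was 1 library per mark, so no difference had a replicate check and no p-value is given. All intervals are 95% intervals over peaks or genes and cover counting error only.

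Both marks sit on the same lysine side chain, so 1 histone tail can carry only 1 of them at a time, while a population of cells can show both at 1 site. Acetylation is laid down by histone acetyltransferases with acetyl-CoA as donor and is a classical mark of active promoters and enhancers. β-Hydroxybutyrylation adds the acyl group derived from the ketone body β-hydroxybutyrate, which liver makes during fasting, and it has been described at active promoters, among them those of genes of the starvation response in mouse liver. ENL, the product of MLLT1, binds acylated lysines through its YEATS domain, and Y78A puts alanine in place of a tyrosine that lines the binding pocket. CUT&Tag sends a transposase to antibody-bound chromatin, and the enzyme also favours open chromatin.

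The lists were not made alike. The lowest deposited −log10 q was 2.02 for H3K9bhb and 1.31 for H3K9ac, and the limit of 2 removed 0 and 365 peaks. The H3K9ac peaks nearest the limit had a −log10 q of 2.001 just inside it and 1.998 just outside it, and 17 of the 365 removed peaks were overlapped by H3K9bhb. Peak names inside the list labelled H3K9ac begin with ENL1, and their form differs from that of the H3K9bhb list. The group was taken from the label. Read totals are unknown. The summit fragment counts recovered from the deposited values had a median of 21 in H3K9bhb and 33 in H3K9ac, and the most frequent background level of H3K9bhb was 0.546 times that of H3K9ac. As a check of the labelled line, liver markers were counted. Of 12 hepatocyte lineage genes, H3K9bhb marked 4 (APOA1, APOA2, APOB and HNF4A) and H3K9ac marked 7, among them the same 4, FOXA2 and CEBPA. Neither list had a peak at a gene end of ALB, AFP, FGB, SERPINA1 or TTR. Of 15 marker genes of blood, endothelium, fibroblast, nervous system, muscle, lung and islet, H3K9bhb marked 0 and H3K9ac marked 2, SFTPC and PECAM1.

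The promoters of 2 or 3 leading genes of each class are shown, because the peaks at them are described below. Each is the 250 bases before a RefSeq gene start (GRCh38.p14), 5′ to 3′ along the gene, with CG dinucleotides in capitals and any CCAAT box, written CCAAT or on the other strand ATTGG, in capitals too. The first pair carried both marks. SPATC1L, at chr21:46184460-46184709 on the minus strand, had the highest H3K9bhb fold of any gene end with both marks, and LMAN1, which encodes a cargo receptor of the early secretory pathway, lies at chr18:59359266-59359515 on the minus strand.
SPATC1L: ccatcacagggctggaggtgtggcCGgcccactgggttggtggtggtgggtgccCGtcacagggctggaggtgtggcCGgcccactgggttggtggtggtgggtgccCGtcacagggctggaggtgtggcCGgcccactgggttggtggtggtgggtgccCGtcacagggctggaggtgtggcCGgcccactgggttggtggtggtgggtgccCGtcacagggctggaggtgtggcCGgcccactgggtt
LMAN1: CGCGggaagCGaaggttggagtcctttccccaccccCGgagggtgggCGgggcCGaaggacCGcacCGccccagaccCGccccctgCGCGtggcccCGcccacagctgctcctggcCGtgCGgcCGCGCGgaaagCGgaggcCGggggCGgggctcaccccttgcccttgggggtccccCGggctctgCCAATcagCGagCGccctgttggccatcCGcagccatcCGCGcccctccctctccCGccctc
The next genes were classed by their gene ends as having H3K9bhb and no H3K9ac peak. For GRK6 the gene end used was not the start printed here but lay 960 bp from the H3K9bhb summit. An H3K9ac peak lay 345 bp from that H3K9bhb peak, so the class of GRK6 does not describe its printed window. SRI, which encodes the calcium-binding protein sorcin, lies at chr7:88226977-88227226 on the minus strand. GRK6, which encodes a kinase of G protein-coupled receptors, lies at chr5:177426426-177426675 on the plus strand, and C4BPA, the alpha chain of a complement regulator secreted by liver, at chr1:207103983-207104232 on the plus strand.
SRI: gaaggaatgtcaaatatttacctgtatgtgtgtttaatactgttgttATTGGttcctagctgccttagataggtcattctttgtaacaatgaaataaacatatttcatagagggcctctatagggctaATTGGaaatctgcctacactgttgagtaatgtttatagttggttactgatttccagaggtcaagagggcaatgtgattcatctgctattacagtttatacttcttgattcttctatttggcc
GRK6: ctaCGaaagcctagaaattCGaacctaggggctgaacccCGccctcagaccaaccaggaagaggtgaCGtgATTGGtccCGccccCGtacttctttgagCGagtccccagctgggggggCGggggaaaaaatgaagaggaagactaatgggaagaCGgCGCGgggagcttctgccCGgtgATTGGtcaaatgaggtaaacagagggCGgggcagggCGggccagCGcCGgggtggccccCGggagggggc
C4BPA: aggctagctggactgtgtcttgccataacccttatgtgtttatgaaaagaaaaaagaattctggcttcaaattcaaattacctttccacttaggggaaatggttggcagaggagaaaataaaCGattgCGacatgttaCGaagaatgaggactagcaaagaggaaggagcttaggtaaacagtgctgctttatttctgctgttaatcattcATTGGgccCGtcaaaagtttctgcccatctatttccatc
The last pair had H3K9ac and no H3K9bhb peak. DCDC1 lies at chr11:31369740-31369989 on the minus strand and shares its H3K9ac peak with its neighbour DNAJC24, and CSTF2, a subunit of the mRNA cleavage stimulation factor, lies at chrX:100820141-100820390 on the plus strand.
DCDC1: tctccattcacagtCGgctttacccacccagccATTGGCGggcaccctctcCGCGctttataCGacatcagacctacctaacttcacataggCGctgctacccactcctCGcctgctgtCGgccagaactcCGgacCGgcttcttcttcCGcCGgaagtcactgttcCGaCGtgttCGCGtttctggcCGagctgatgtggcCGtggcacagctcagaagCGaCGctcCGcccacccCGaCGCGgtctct
CSTF2: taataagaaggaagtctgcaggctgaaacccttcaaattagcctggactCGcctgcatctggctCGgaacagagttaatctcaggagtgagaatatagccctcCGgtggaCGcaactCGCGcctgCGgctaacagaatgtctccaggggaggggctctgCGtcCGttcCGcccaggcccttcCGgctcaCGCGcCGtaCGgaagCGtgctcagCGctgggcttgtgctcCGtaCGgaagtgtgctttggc
The SPATC1L window is a tandem repeat: shifted by 53 bases, 99.5% of its letters are the same. It has 9 CG dinucleotides, and its ratio of observed to expected CG is 0.321. LMAN1 has 27 and a ratio of 0.744. SRI has 0 CG dinucleotides and 2 CCAAT boxes, GRK6 has 17 and 2, with a ratio of 0.703, and C4BPA has 4 and 1, with a ratio of 0.397. DCDC1 has 24 CG dinucleotides and a ratio of 1.08, and CSTF2 has 19 and a ratio of 0.868. ZNF658, whose fold lies between theirs, has 15 and a ratio of 0.901. The CG-poor letters of SRI and C4BPA do not stand for all of their class. The median GC content was 65.6% in the promoters of 45 genes with H3K9bhb only, 65.6% with both marks and 64.8% with H3K9ac only. A CG ratio above 0.6 was less frequent in the 45 (60%) than with both marks (87.0%) or with H3K9ac only (79.3%). These genes were classed by peaks at either gene end. Classed by peaks at the start itself, the shares above 0.6 were 69.2% of 39 with H3K9bhb only, 88.9% with both marks and 81.3% with H3K9ac only. The median GC content of the 39 was 67.6%.

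Most H3K9bhb peaks lay in acetylated chromatin, while most H3K9ac peaks had no H3K9bhb. An H3K9ac peak overlapped 7537 of 9176 H3K9bhb peaks (82.1%, interval 81.3 to 82.9), and an H3K9bhb peak overlapped 7519 of 31128 H3K9ac peaks (24.2%, interval 23.7 to 24.6). That left 1639 H3K9bhb-only peaks over 0.494 Mb and 23609 H3K9ac-only peaks over 12.3 Mb. By length, H3K9ac covered 78.6% of the bases under H3K9bhb, and H3K9bhb covered 15.3% of the bases under H3K9ac. The lists differ 3-fold or more in length on most chromosomes, and with each limited to its 9176 strongest peaks by p the 2 shares became 50.6% of H3K9bhb peaks and 49.6% of H3K9ac peaks.

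In both lists the shared peaks were wider and more strongly called. A wider peak meets the 1 bp rule more easily, and the part of this in the width difference was not tested. Shared H3K9bhb peaks had a median width of 383 bp, against 268 bp for H3K9bhb-only peaks. Shared H3K9ac peaks had a median width of 840 bp, against 381 bp for H3K9ac-only peaks. The authors' fold at the summit had a median of 4.97 in shared H3K9bhb peaks, against 4.70 in H3K9bhb-only peaks. Each fold refers to the background of its own list. Within the H3K9ac list the medians were 3.95 in shared peaks and 3.32 in H3K9ac-only peaks. Fragments at the summit had a median of 22 in shared H3K9bhb peaks and 17 in H3K9bhb-only peaks, and 46 in shared H3K9ac peaks and 29 in H3K9ac-only peaks. Ranked by −log10 p into 4 equal groups, from weakest to strongest, 70.8%, 79.9%, 84.5% and 93.4% of H3K9bhb peaks were shared. The same groups of H3K9ac gave 7.42%, 11.4%, 25.1% and 52.7%. The weakest H3K9bhb peaks were thus shared more often than the strongest H3K9ac peaks, in lists of 9176 and 31128 peaks. This contrast was not run on lists of equal length, for which the shares of all peaks were 50.6% and 49.6%.

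**Figure D1:**
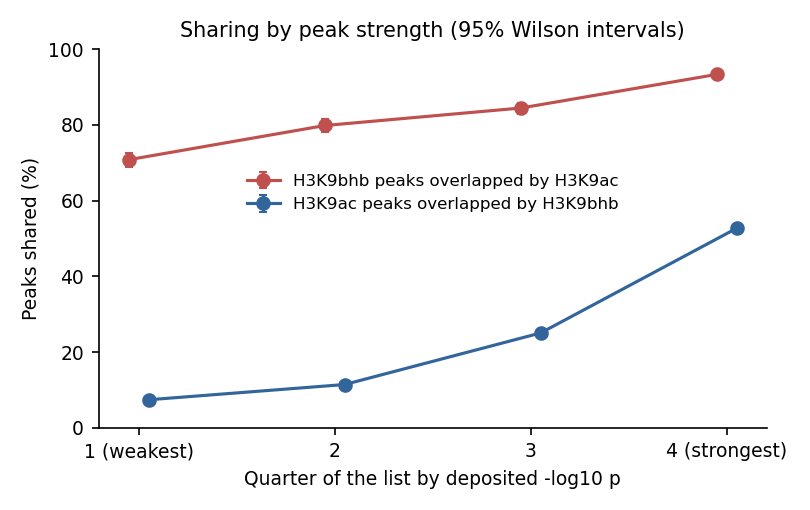
Share of peaks overlapped by the other mark (vertical axis, %) in 4 equal groups of each list ranked by the deposited −log10 p (horizontal axis, weakest to strongest), with 95% Wilson intervals, most of them smaller than the points. The share goes up along both lists, to 93.4% of the strongest H3K9bhb peaks and 52.7% of the strongest H3K9ac peaks. The lists differ in length, with 9176 H3K9bhb and 31128 H3K9ac peaks.

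Where the marks met, the H3K9bhb peak was usually narrow and lay inside a broader H3K9ac peak. Of the shared H3K9bhb peaks, 4751 (63.0%) lay wholly inside 1 H3K9ac peak, and the H3K9ac peak was a median of 1.98 times as wide. H3K9bhb covered 43.2% of the length of shared H3K9ac peaks, and H3K9ac covered 90.7% of the length of shared H3K9bhb peaks. The distance between the summits of a pair had a median of 101 bp, with 3758 H3K9bhb summits (49.9%) within 100 bp of the H3K9ac summit and 570 (7.56%) more than 500 bp away. An H3K9ac peak held at most 2 H3K9bhb peaks. The 122 H3K9ac peaks that held 2 had a median width of 1540 bp, against 829 bp for those that held 1, and the 2 H3K9bhb summits lay a median of 665 bp apart. One such peak was at ZNF583, a zinc finger gene, at chr19:56403834-56405202, with an H3K9ac fold of 6.51.

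Shared peaks lay at gene ends far more often than H3K9bhb-only peaks. The summit lay within 1 kb of either end of a protein-coding gene for 50.6% of shared H3K9bhb peaks and 8.18% of H3K9bhb-only peaks (134 peaks). The corresponding shares were 50.3% of shared H3K9ac peaks and 32.7% of H3K9ac-only peaks (7713 peaks). H3K9bhb-only minus H3K9ac-only gave a difference of −24.5 percentage points (interval −25.9 to −22.9). Inside a gene but beyond 1 kb of its ends lay 43.3% of H3K9bhb-only summits and 39.9% of H3K9ac-only summits, and outside genes 48.6% and 27.5%. The median distance from the summit to a gene end was 27900 bp for H3K9bhb-only peaks and 5021 bp for H3K9ac-only peaks. The median gap from an H3K9bhb-only peak to the nearest H3K9ac peak was 14090 bp, and 13.7% of H3K9bhb-only peaks had an H3K9ac peak within 1 kb.

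**Figure D2:**
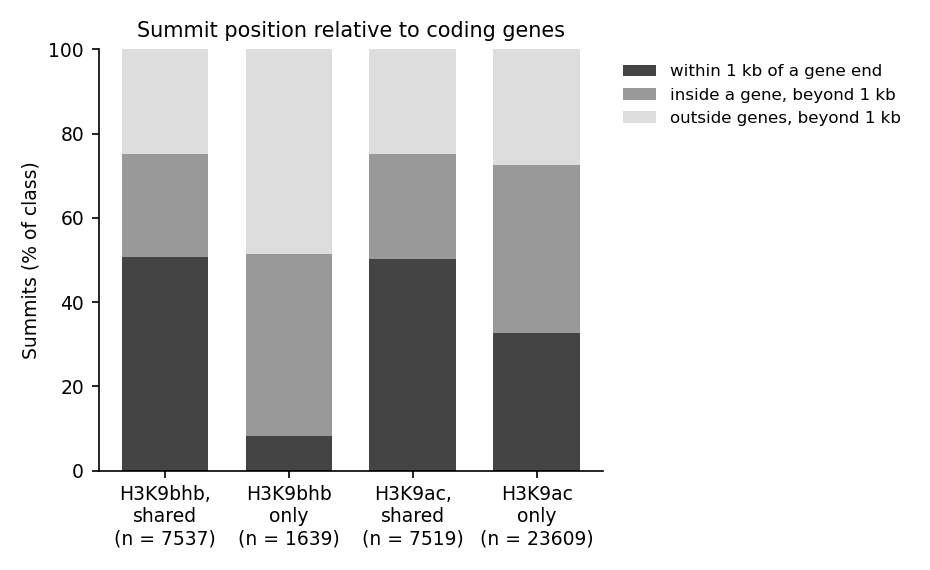
Share of summits (vertical axis, %) within 1 kb of either end of a protein-coding gene, inside a gene beyond 1 kb, or outside genes beyond 1 kb, for the 4 classes of peaks (n under each bar). Gene-end summits make up 50.6% of shared H3K9bhb peaks, 8.18% of H3K9bhb-only peaks, 50.3% of shared H3K9ac peaks and 32.7% of H3K9ac-only peaks.

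Read the other way, nearly every H3K9bhb peak at a gene end overlapped H3K9ac, in lists of 9176 and 31128 peaks. With lists of equal length, 50.6% of all H3K9bhb peaks were shared, and shares by place are given for the full lists only. At gene ends 3814 of 3948 H3K9bhb peaks were shared (96.6%, interval 96.0 to 97.1), against 72.2% inside genes and 70.2% outside them. H3K9ac peaks were shared in 32.9% of cases at gene ends, 16.5% inside genes and 22.4% outside them. Like all but 8.18% of their class, the strongest H3K9bhb-only peaks lay away from gene ends. They were a peak inside PDE10A, a cyclic nucleotide phosphodiesterase gene, at chr6:165619062-165619675 with a fold of 11.0 and 33 summit fragments, a peak at chr4:166580127-166580570 with a fold of 10.9, 153098 bp from SPOCK3, and a peak inside NCF4 at chr22:36872807-36873125 with a fold of 10.1. The nearest H3K9ac peak was 688538 bp from the PDE10A peak and 104162 bp from the NCF4 peak, and all 3 H3K9bhb peaks were overlapped by wild type ENL. Among gene-end summits the strongest H3K9bhb-only peak was at SKIL, a repressor of SMAD signalling, at chr3:170356809-170357325 with a fold of 7.79. An H3K9ac peak lay 61 bp from it.

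Regions far from the ends of protein-coding genes were counted separately. More than 1 Mb from a protein-coding gene end lay 148 H3K9bhb-only peaks (9.03%) and 106 H3K9ac-only peaks (0.449%), a difference of 8.58 percentage points (interval 7.28 to 10.1). Of the 148, chromosome 1 held 25, chromosome 10 held 22, chromosome 19 held 21 and chromosome 5 held 19. H3K9cr overlapped 86 of the 148 (58.1%), against 11.99% of H3K9bhb-only peaks inside genes, and wild type ENL overlapped 44 (29.7%). Most peaks beyond 1 Mb were shared, 230 of 378 H3K9bhb peaks and 232 of 338 H3K9ac peaks. Of the 230 shared H3K9bhb peaks, H3K9cr overlapped 82.2% and wild type ENL 82.2%, more than of the 148. The 3 shared peaks of highest fold were the same sites in both lists, and not all lay beyond 1 Mb. The first was at chr3:93470303-93470857 in H3K9bhb, 402456 bp from a gene end. Its fold was 27.7 in the H3K9bhb list and 27.1 in the H3K9ac list. The next, at chr17:25920041-25920390, was 1373890 bp from a gene end, with folds of 26.1 and 25.5. The third, at chr12:133264834-133265366, was 29242 bp from a gene end, with folds of 22.8 and 21.0. All 3 sites were present in all 5 lists. Without all peaks beyond 1 Mb, 83.1% of H3K9bhb peaks and 23.7% of H3K9ac peaks were shared.

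Along the gene, the median H3K9bhb summit sat before the start and the median H3K9ac summit after it. The promoter table gives start and strand for 15843 of the 20037 protein-coding genes, none of them on chromosome 8. Among summits within 1 kb of such a start, the median position was −76 bp (upstream) for 3553 shared H3K9bhb peaks and +31 bp (downstream) for 3530 shared H3K9ac peaks. It was −211 bp for 97 H3K9bhb-only peaks and +105 bp for 7198 H3K9ac-only peaks. Downstream of the start lay 38.0% of shared H3K9bhb summits, 17.5% of H3K9bhb-only summits, 55.2% of shared H3K9ac summits and 68.1% of H3K9ac-only summits. Paired within the same promoter, the H3K9bhb summit lay upstream of the H3K9ac summit in 2265 of 3553 cases and downstream in 1277, with a median of −55 bp. In bins of 100 bp, shared H3K9bhb had 2 maxima, 11.2% of summits from 200 to 100 bp before the start and 9.93% in the first 100 bp after it. Shared H3K9ac had 1, 10.9% of summits in the first 100 bp after the start.

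The same order held at starts with and without a divergent neighbour, that is, a second protein-coding start on the opposite strand within 1 kb upstream. At starts without one, the medians were −90 bp for shared H3K9bhb and +26 bp for shared H3K9ac. At divergent starts they were −10.5 bp and +42.5 bp.

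**Figure D3:**
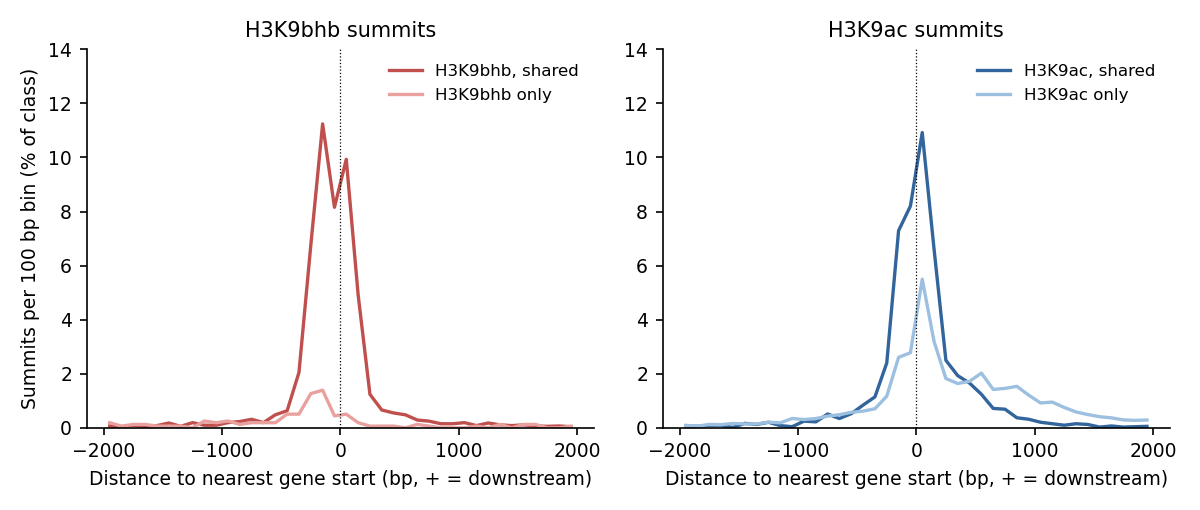
Summits per 100 bp bin (vertical axis, % of all summits of the class on chromosomes with start data) by distance to the nearest protein-coding gene start (horizontal axis, bp, downstream positive), for H3K9bhb on the left and H3K9ac on the right. Shared H3K9bhb has a maximum before the start (11.2%) and another just after it (9.93%), shared H3K9ac has 1 just after it (10.9%), and H3K9ac-only summits tail off downstream.

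The other 3 libraries did not define the classes and separated them. Wild type ENL overlapped 80.0% of shared H3K9bhb peaks and 80.7% of shared H3K9ac peaks. It overlapped 50.3% of H3K9bhb-only peaks (825 of 1639) and 12.3% of H3K9ac-only peaks (2915 of 23609), a difference of 38.0 percentage points (interval 35.5 to 40.4). Y78A overlapped 24.5% of H3K9bhb-only peaks and 3.10% of H3K9ac-only peaks, a difference of 21.4 points (interval 19.3 to 23.5). H3K9cr overlapped 16.2% and 2.66%, a difference of 13.5 points (interval 11.8 to 15.4). None of the 3 was present at 40.8% of H3K9bhb-only peaks and 85.1% of H3K9ac-only peaks. All 3 were present at 18.7% of shared H3K9bhb peaks and 4.39% of H3K9bhb-only peaks.

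Wild type ENL was more frequent on H3K9bhb-only than on H3K9ac-only peaks at gene ends, inside and outside genes and in each strength group. At gene ends, wild type ENL overlapped 96 of 134 H3K9bhb-only peaks (71.6%) and 1373 of 7713 H3K9ac-only peaks (17.8%). Inside genes the shares were 48.5% and 8.74%, and outside genes 48.4% and 11.1%. Beyond 1 Mb wild type ENL overlapped 29.7% of H3K9bhb-only peaks (44 peaks) and 27.4% of H3K9ac-only peaks (29 peaks). The shares there were 31.1% and 23.6% for Y78A, and 58.1% and 43.4% for H3K9cr. In the 4 equal groups by −log10 p, from weakest to strongest, ENL overlapped 36.6%, 50.6%, 63.5% and 78.9% of H3K9bhb-only peaks. The same groups of H3K9ac-only peaks gave 5.84%, 9.56%, 15.9% and 24.7%. Shared H3K9bhb peaks did not lie above H3K9bhb-only peaks throughout: H3K9cr overlapped 13.8% of shared and 14.3% of H3K9bhb-only peaks in the second of these groups, and 21.9% and 23.6% in the third. The H3K9bhb and ENL lists share the form of their peak names and a lowest −log10 q near 2, unlike the H3K9ac list, and the part of processing in this difference cannot be told apart from that of the mark.

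**Figure D4:**
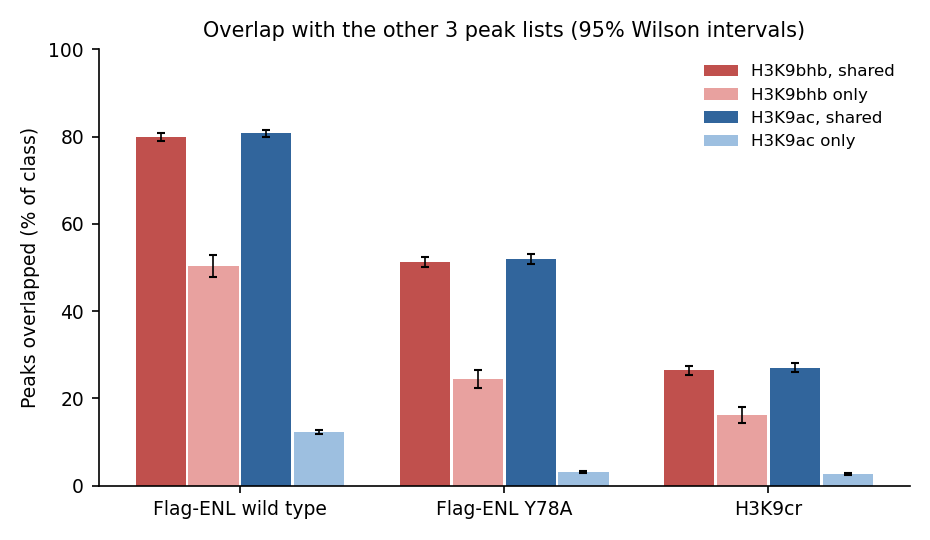
Share of each class of peaks (vertical axis, %) overlapped by wild type Flag-ENL, Flag-ENL Y78A and H3K9cr (horizontal axis), with 95% Wilson intervals. In each of the 3 lists the H3K9ac-only class is lowest (12.3%, 3.10% and 2.66%) and the H3K9bhb-only class lies between it and the shared classes.

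Counted by gene, at the limits of these lists, the genes with H3K9bhb were nearly all acetylated. A gene had a mark when a peak overlapped the 1 kb on either side of its start or end. Of 20037 protein-coding genes, 4699 (23.5%) had both marks, 67 (0.334%) had H3K9bhb only, 6582 (32.8%) had H3K9ac only and 8689 had neither. The count with H3K9bhb only depended on list length: it was 953, beside 3813 with both marks, when each list was limited to its 9176 strongest peaks, and 134 at a −log10 q of 5 or more. It was 120 over whole genes and 37 at gene starts alone. In 98.3% of the genes with both marks an H3K9bhb peak there overlapped an H3K9ac peak. Genes with both marks had a median −log10 p of 17.4 and a median width of 1190 bp at their strongest and widest H3K9ac peaks, against 12.5 and 843 bp in genes with H3K9ac only. The share of genes with wild type ENL was 86.1% with both marks, 65.7% with H3K9bhb only, 23.9% with H3K9ac only and 0.806% with neither.

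The strongest H3K9bhb gene ends with both marks belonged to genes of varied function. SPATC1L had an H3K9bhb peak at chr21:46184393-46184782 with a fold of 14.4 and an H3K9ac peak with a fold of 6.62, over the tandem repeat printed above. LRIF1, a chromatin protein that binds HP1, had folds of 11.4 for H3K9bhb and 6.91 for H3K9ac. LMAN1 had folds of 10.9 and 6.18, with an H3K9bhb peak of 371 bp at chr18:59359123-59359493 inside an H3K9ac peak of 1184 bp. CCDC59 and METTL25 shared their peaks, with folds of 9.67 and 5.35. TPR, a nuclear pore basket protein, shared its peaks with ODR4, at 9.66 and 5.17. ICE1, which serves transcription of small nuclear RNA genes within the little elongation complex, had 9.39 and 4.27. NUDCD1 and ENY2, a subunit of the SAGA and TREX-2 complexes, shared peaks of 9.22 and 5.08. All 10 of these genes, some of them at shared peaks, had wild type ENL, beside 86.1% of all genes with both marks. TNKS and WDR33, which encode a tankyrase and a subunit of the mRNA polyadenylation complex, each had 3 H3K9bhb peaks at their ends, the most of any gene.

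Genes with H3K9bhb only had weaker H3K9bhb peaks, and some bordered on acetylation. Their median H3K9bhb fold was 4.04, against 5.08 in genes with both marks. At 6 of the 67 the H3K9bhb peak overlapped an H3K9ac peak that lay outside the window, among them DIABLO, a mitochondrial activator of caspases, with a fold of 7.42, and CDC42EP5 with 5.81. At GRK6, printed above, the H3K9ac peak was 345 bp away from an H3K9bhb peak with a fold of 5.47. Others were isolated. The SRI peak at chr7:88227080-88227449 had a fold of 7.24, 15 summit fragments and no H3K9ac peak within 292289 bp. The C4BPA peak at chr1:207104169-207104409 had a fold of 5.43, with its summit 9 bp from the gene start and the nearest H3K9ac peak 13666 bp away. The remaining leading genes were TEX48 at 7.24, OR2T1 at 5.89, ANKRD18B at 5.68, TAFA4 at 5.43 and NXN at 5.39.

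Strong acetylation without H3K9bhb was common. DCDC1 and DNAJC24 shared an H3K9ac peak at chr11:31369526-31370233 with a fold of 12.1 and a −log10 p of 37.6, and the nearest H3K9bhb peak was 139535 bp away. ZNF658 had a fold of 9.95, CSTF2 9.76, LRRIQ3 and FPGT 9.38 at a shared peak, and IFTAP 9.03. SDHAF4 and SDHAF3, assembly factors of mitochondrial succinate dehydrogenase, had 8.98 and 8.94, and TMEM184C had 8.98. None of these 10 genes had wild type ENL, Y78A or H3K9cr, beside 23.9%, 5.30% and 0.79% of all genes with H3K9ac only. The widest H3K9ac peaks without H3K9bhb were at WWC2 (2660 bp), B3GNT2 (2607 bp), MAGI2 (2459 bp), LDHA (2381 bp) and DPM1 (2374 bp). Of these, LDHA, the lactate dehydrogenase of glycolysis, had wild type ENL.

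Of 11281 acetylated protein-coding genes, 41.7% also had H3K9bhb (interval 40.7 to 42.6), and the gene lists were read against that share. Lists for sterol metabolism and for handling of RNA lay above it, with intervals that excluded it. In cholesterol synthesis and uptake 18 of 26 acetylated members had H3K9bhb (69.2%, interval 50.01 to 83.5). Neither mark was at 4 of the 30 members, beside 43.4% of all protein-coding genes. NSDHL and SQLE, enzymes of the later and middle steps, had H3K9bhb folds of 7.22 and 6.90 and H3K9ac folds of 5.12 and 3.58. STARD4, a sterol carrier, had 6.70 and 6.32. Translation initiation factors had H3K9bhb at 34 of 53 acetylated members (64.2%, interval 50.7 to 75.7), led by EIF4G2 at a fold of 6.65 and EIF5A at 6.61. Splicing factors and hnRNPs had it at 47 of 75 (62.7%, interval 51.4 to 72.7), led by HNRNPD at 8.81 and SF3B6 at 8.38.

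Both lists of fasting genes had intervals that included the share of all acetylated genes. In both, 0 members had H3K9bhb alone, as in most of the other lists, beside 0.334% of all protein-coding genes. In gluconeogenesis and fasting 15 of 25 acetylated members had H3K9bhb (60%, interval 40.7 to 76.6). Neither mark was at 10 of the 35, beside 43.4% of all protein-coding genes. CREB1, a cAMP-responsive activator, had the highest H3K9bhb fold of the list, 8.42, beside an H3K9ac fold of 4.91. SESN1, a stress-induced inhibitor of mTORC1 signalling, had 6.07 and 4.69, and GOT2, the mitochondrial aspartate aminotransferase, had 5.61 and 5.72. PCK1, G6PC1 and FBP1, enzymes of gluconeogenesis itself, had neither mark, while PC and PCK2, also enzymes of gluconeogenesis, had both. In ketone bodies and fatty acid oxidation 9 of 25 acetylated members had H3K9bhb (36%, interval 20.2 to 55.5), and 8 of the 33 had neither. ACADM, the medium-chain acyl-CoA dehydrogenase, had folds of 7.22 and 6.11, and ETFDH, which passes its electrons on, had 6.87 and 4.67. CPT1A, the control point of fatty acid entry into mitochondria, had neither mark. BDH1, which makes β-hydroxybutyrate, had H3K9ac only, with an H3K9ac fold of 3.48. It and CPT1A, like the gluconeogenesis enzymes named without a fold, were picked after their values were seen.

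Liver genes lay below the share of all acetylated genes, with intervals that included it. Liver transcription factors had H3K9bhb at 8 of 27 acetylated members (29.6%, interval 15.8 to 48.5), led by TBX3 at 5.94, NR0B2 at 5.03, ATF5 at 4.91 and HNF4A at 4.85. Liver secreted proteins had it at 11 of 31 (35.5%, interval 21.1 to 53.0), led by APOM at 6.09 and C4BPB at 5.77. C4BPA of that list had H3K9bhb only. Cytochrome P450 genes had it at 7 of 18 acetylated members, and 37 of the 55 had neither mark, beside 43.4% of all protein-coding genes.

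Replication-dependent histone genes were the lowest of the lists with at least 10 acetylated members. H3K9bhb was at 13 of 51 (25.5%, interval 15.6 to 38.9), led by H4C15 at 4.76 and H3C14 at 4.11. Their median H3K9ac fold was 2.97, against 3.85 over all acetylated genes, and close copies of these genes can share or lose reads. Mediator and RNA polymerase II subunits had H3K9bhb at 13 of 42 (31.0%, interval 19.1 to 46.0), although all 43 had at least 1 of the marks. Oxidative phosphorylation subunits had it at 25 of 75 (33.3%, interval 23.7 to 44.6), led by ATP5PO at 7.08 and NDUFB3 at 6.77.

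The remaining larger lists had intervals that included the share of all genes. Cytosolic ribosomal proteins had H3K9bhb at 33 of 78 acetylated members (42.3%), mitochondrial ribosomal proteins at 30 of 74, proteasome subunits at 19 of 43 and DNA replication genes at 20 of 44. Cell cycle genes had it at 18 of 41, immediate early genes at 10 of 25, SLC25 carriers at 17 of 37 and RAB GTPases at 24 of 44. Aminoacyl-tRNA synthetases had it at 19 of 35, lysine acylation enzymes and readers at 12 of 30, and zinc finger genes named ZNF at 147 of 378. BRD3, a reader of acetylated histones, was the member of the acylation list with H3K9bhb only, at a fold of 4.73. Among lists with under 10 acetylated members, HOX genes had H3K9bhb at 0 of 9, genes of other tissues at 0 of 5 and olfactory receptors at 0 of 5, with upper bounds of 29.9%, 43.45% and 43.45%, while UDP-glucuronosyl and glutathione transferases had it at 2 of 9 and keratins at 2 of 6. Members of a list can share a promoter, and the intervals are not corrected for the number of lists.

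**Figure D5:**
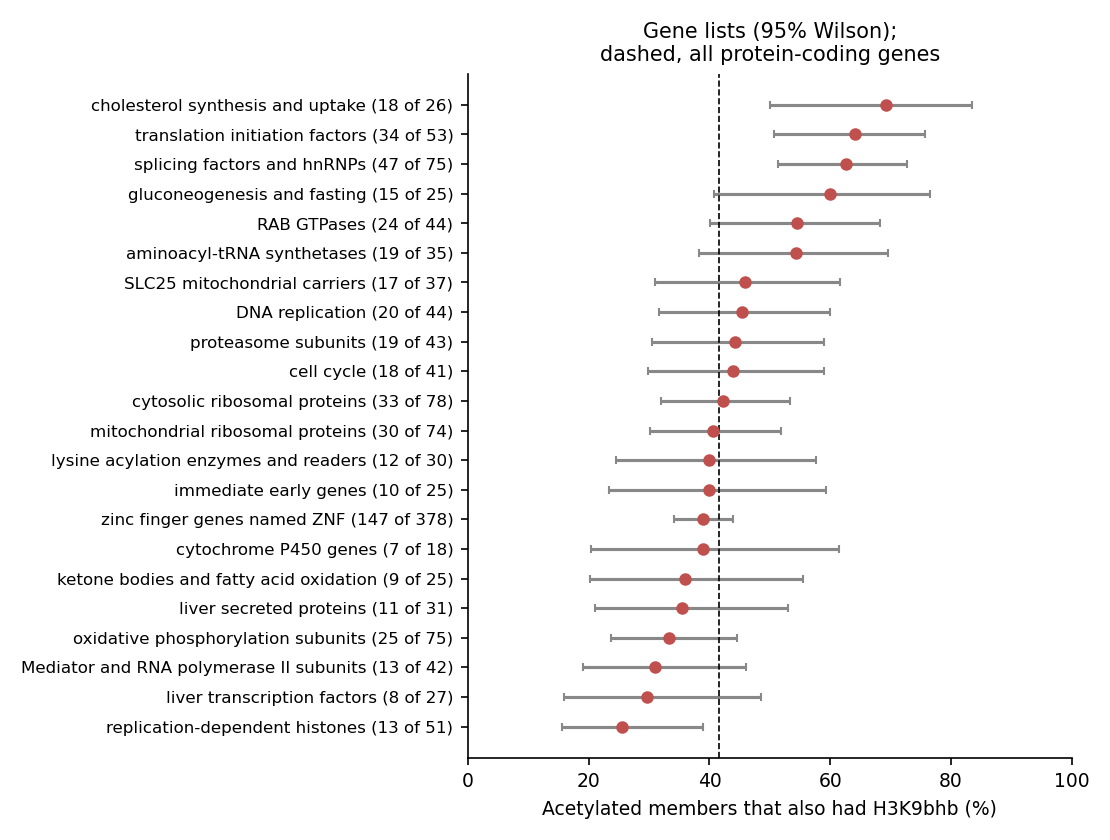
Share of acetylated members that also had H3K9bhb at a gene end (horizontal axis, %) for the gene lists with at least 10 acetylated members (vertical axis, with counts), with 95% Wilson intervals; the dashed line is the 41.7% of all acetylated protein-coding genes. Cholesterol genes are highest at 69.2% and replication-dependent histones lowest at 25.5%.

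Outside protein-coding genes, H3K9bhb was at 48 of 181 acetylated tRNA genes (26.5%), against 41.7% of acetylated protein-coding genes. Of 443 tRNA genes, 48 had both marks, 4 had H3K9bhb only and 133 had H3K9ac only. Away from protein-coding gene ends by more than 2 kb, H3K9bhb was at 17 of 122 acetylated tRNA genes (13.9%) and at 22 of 46 acetylated snRNA genes (47.8%). Under the same limit it was at 359 of 1371 acetylated lncRNA genes (26.2%) and 23 of 89 acetylated miRNA genes (25.8%). It was at 8 of 38 snoRNA genes (21.1%), 76 of 378 pseudogenes (20.1%), 85 of 256 transcribed pseudogenes (33.2%) and 6 of 8 rRNA genes (75%), again of those acetylated. Neighbouring and near-identical copies of tRNA and snRNA genes can share a peak or lose reads.

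Some promoter letters were more frequent in genes with both marks than in those with H3K9ac only, and others differed little or changed sign between groups of genes. The promoter table matched 15843 of 20037 protein-coding genes (79.1%). Each motif was searched on both strands in the 250 bases before the start, and a match is a description of the letters, not a bound site. CCAAT, the letters of the NF-Y box, was found in 41.9% of promoters of genes with both marks and 30.9% with H3K9ac only, a difference of 11.0 percentage points (interval 8.99 to 12.9), with 34.5% over all promoters. Within 4 equal groups of genes by H3K9ac −log10 p, weakest first, the difference was 13.8, 13.2, 8.61 and 10.5 points. Of the printed promoters with both marks, LMAN1 has such a box and SPATC1L does not. Of those with H3K9ac only, DCDC1 has it and CSTF2 does not. GGGCGG, the GC box, was found in 72.2% and 66.1%, with 55.8% over all, and in the weakest of the 4 groups the interval of the difference was −1.28 to 8.18 points. A ratio of observed to expected CG above 0.6 was found in 87.0% and 79.3%, a difference of 7.78 points (interval 6.26 to 9.28), with 63.2% over all; in the second of the 4 groups by H3K9ac −log10 p its interval was −0.213 to 5.83, and at divergent starts −1.70 to 3.88. TATAAA was found in 4.34% and 5.70%, with 9.37% over all, and 15.5% of genes with neither mark had it. In the weakest group by H3K9ac −log10 p the TATAAA difference was 2.10 points, of the other sign. The E-box CACGTG was found in 8.97% and 9.28%, an interval of the difference of −1.48 to 0.885 points. The ETS letters CCGGAAG were found in 18.5% and 16.6%, a difference of 1.86 points (interval 0.305 to 3.43). In the 4 groups the ETS difference was 1.95, 0.33, −1.94 and −3.07 points, each with an interval that included 0, and at divergent starts it was −4.13 points. No motif contains another, though matches can share letters. The AP-1 letters TGACTCA were found in 2.06% and 2.36%. The forkhead letters TGTTTAC were found in 1.75% and 1.97%. Part of an HNF4 site, CAAAGTC, was found in 1.88% and 2.16%.

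Divergent starts were also more frequent with both marks. A divergent neighbour was present at 24.8% of genes with both marks and 14.2% with H3K9ac only, a difference of 10.6 points (interval 9.01 to 12.3), with 12.3% over all. The difference was 7.49 points or more in each of the 4 groups by H3K9ac −log10 p. Both genes of a divergent pair count, and often share 1 peak. At starts without a divergent neighbour CCAAT was found in 41.7% of promoters of genes with both marks and 30.3% of those with H3K9ac only.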

How the data were processed

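Peak lists of 5 CUT&Tag libraries of HepG2 cells were used, 1 per group, grouped by sample title. The build hg38 and the tools Bowtie2, MACS2, FastQC and deepTools are listed, with no role, version or parameter, per the submitters' processing notes. The sources used here do not give the control library, duplicate handling or read totals. Each deposited fold is a ratio of summit signal to the background estimate of the caller. Deposited p and q values are on a −log10 scale. The authors' score column repeats the q, multiplied by 10 and made whole. The folds are the authors', and were used only to describe, rank and divide peaks within a list.

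Summit fragments were solved from the deposited fold and p under a Poisson background, with 1 added to both terms of the fold, and matched 100% of the peaks of both lists within a relative tolerance of 0.0001. Overlap was 1 bp or more and was checked against bedtools 2.31.1. Shares have Wilson intervals and differences Newcombe intervals. Genes were the protein-coding genes of the RefSeq table for GRCh38.p14, the assembly also called hg38; starts, strands and promoter letters came from the RefSeq promoter table of the same build. Coordinates are 1-based. Python 3.11.15, pandas 2.3.3, scipy 1.17.1 and matplotlib 3.10.9 were used. The comparison, the 27 gene lists and the tests were chosen with earlier results of these data known. Named genes had the highest fold in their class (10 per class), the widest H3K9ac peaks (5), the most H3K9bhb peaks, or were up to 4 leading members of a list; readthrough genes were skipped, as was the tyrosine aminotransferase gene among the fasting genes, whose symbol is made only of base letters. Some members of the lists are not reported here. Alternatives changed the q limit, list length, overlap rule and gene window.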

Additional observations from a re-analysis of the deposited data

Results flagged for a closer look

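The H3K9bhb list also held 484 peaks on contigs other than chromosomes 1 to 22, X and Y, which no comparison above used. They are given because a signal appears in data outside the main measurement. An H3K9ac peak overlapped 377 of them (77.9%). The H3K9ac list held 1706 such peaks past the same limit, of which 378 (22.2%) were overlapped by H3K9bhb.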

How the results depend on the processing

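The wild type ENL and gene-end differences kept their sign under the alternatives run. The other results are shares and counts, which cannot change sign, and list length moved most results. With a −log10 q of 5 or more in both lists, 76.3% of H3K9bhb and 28.1% of H3K9ac peaks were shared. With lists of equal length the shares were 50.6% and 49.6%, against 82.1% and 24.2% without that limit. With at least 50% of the peak covered the shares were 78.1% and 11.4%, and with the summit inside the other peak 78.0% and 18.6%. Without peaks beyond 1 Mb, an alternative chosen after seeing the data, they were 83.1% and 23.7%. Genes with H3K9bhb only numbered 134 at a −log10 q of 5, 953 with equal lists, 120 over whole genes and 37 at gene starts alone, and genes with H3K9ac only numbered 3375 with equal lists. The count of genes with both marks stayed within 1.5 times under every alternative. The wild type ENL difference, H3K9bhb-only minus H3K9ac-only, was 42.7 points at a −log10 q of 5, 41.6 with equal lists and 42.5 with at least 50% of the peak covered. The gene-end difference was −36.4 at a −log10 q of 5, −44.8 with equal lists, −26.9 with at least 50% covered, −22.2 by summit and −30.4 with a window of 2500 bp. The cause of these shifts was not tested beyond the shorter lists themselves. No paired analysis was possible because each group had 1 library. Read depth is unknown, and a mark with no called peak at a site is not shown to be absent there.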
